A study of Mus musculus with 3 samples.

Results

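A set of 10 genes of lipid handling was followed through the cells of the mouse heart: Lpl, Gpihbp1, Cd36, Fabp4, Fabp5, Apoe, Abca1, Gpam, Gpnmb and Trem2. They were chosen by name as genes of lipid uptake, apolipoproteins and lipid-laden macrophages, and were 10 of the 32285 genes counted; all 10 had at least 1 UMI (unique molecular identifier, 1 per captured transcript) in each library. Hearts of male C57/B6J mice of 3 genotypes were compared: wild type (WT), Myh6-R404Q and Prkag2-p.R299Q. Myh6-R404Q changes 1 residue of the alpha myosin of adult mouse heart muscle, and Prkag2-p.R299Q is a point mutation in a regulatory subunit of AMPK, a kinase that senses cellular energy and acts on fatty acid use. Both are models of hypertrophic cardiomyopathy per the series title. Whole hearts were digested with collagenase, passed through a 70 µm strainer and profiled without selection of a cell type by a droplet method that reads transcript 3-prime ends. There was 1 library per genotype, and neither age nor the number of mice per library is given in the sources used here. A difference between libraries therefore could not be tested against replicates. Intervals are at 95% and cover counting error only.

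As background, heart muscle draws much of its energy from fatty acids that arrive as triglyceride in circulating lipoproteins. Lipoprotein lipase (Lpl) cuts that triglyceride on the vessel wall, where Gpihbp1, an anchor protein of capillary endothelium, carries it. Cd36 moves the released fatty acids across membranes, Fabp4 and Fabp5 bind them inside cells, and Gpam starts their storage as triglyceride. Apoe and Abca1 act in the other direction, since Abca1 exports cholesterol and Apoe accepts it. Trem2, a lipid-sensing receptor, and Gpnmb, a glycoprotein of lysosomes, are known from macrophages that have taken up much lipid.

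The stretches before the transcription starts of Abca1 and Trem2 are shown because these genes stood at opposite ends of the data. No difference between libraries was called for Abca1 in any class, while Trem2 had the largest difference between the mutants among the called pairs. RefSeq promoter entries on GRCm38.p6, the assembly also known as mm10, matched 6 of the 10 genes. The 250 bases before each start are given 5′ to 3′ on the gene's strand, with matched motifs in capitals.
Abca1, chr4:53159896-53160145, minus strand: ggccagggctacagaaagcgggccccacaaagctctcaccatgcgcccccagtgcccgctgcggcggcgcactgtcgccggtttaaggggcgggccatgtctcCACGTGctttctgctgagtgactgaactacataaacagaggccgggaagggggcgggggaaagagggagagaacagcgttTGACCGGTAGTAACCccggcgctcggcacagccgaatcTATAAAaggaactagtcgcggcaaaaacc
Trem2, chr17:48346151-48346400, plus strand: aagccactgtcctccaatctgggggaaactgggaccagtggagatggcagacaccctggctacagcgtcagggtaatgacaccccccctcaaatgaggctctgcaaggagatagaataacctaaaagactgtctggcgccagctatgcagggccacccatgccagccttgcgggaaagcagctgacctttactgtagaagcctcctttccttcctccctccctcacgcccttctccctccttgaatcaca
The capitals in Abca1 are, in order, CACGTG, a repeat of the kind bound by liver X receptors, and TATAAA. That repeat was searched on both strands as GGTTA, 4 bases of any kind and CGGTCA, and lies on the opposite strand, so the printed letters are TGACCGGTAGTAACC. Over 32851 promoters of mouse genes, each 250 bases before to 50 after the start, CACGTG occurred in 7.15% and TATAAA in 13.6%. The repeat occurred in 4 promoters (0.0122%). It was searched in the form of the Abca1 element, so its match in Abca1 was fixed in advance. Its share does not measure how rare repeats of this kind are. The other motifs searched on both strands were CATGTG (in 14.2% of promoters), GAGGAAGT (3.20%) and the pair AGGTCA, 1 base of any kind, AGGTCA (0.0396%). None of the motifs searched was found in the Trem2 stretch, which says only that these letters are not in it.

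In WT there were 18033 barcodes with 41047991 UMIs, in Myh6-R404Q 12662 with 38251499 and in Prkag2-p.R299Q 7951 with 31385005. The Myh6-R404Q library was taken by elimination: its matrix holds 3 sets of barcodes, of which one equals the WT matrix and another the Prkag2-p.R299Q matrix with 0 entries that differ. Between 28 and 51 barcode sequences were shared by a pair of libraries. Myh6 stood at 6437, 6108 and 7178 CPM (counts per 1e6 UMIs summed) and Prkag2 at 137, 120 and 126, in the order WT, Myh6-R404Q, Prkag2-p.R299Q that is used throughout; a point mutation need not alter either. The kept cells numbered 14831, 10555 and 6840, and 8 classes named from marker genes had at least 200 cells in each library. The 10 lipid genes were kept out of the markers and of the genes used for clustering. No cluster of fat cells was found, and in the 8 classes Lep was at 0 UMIs and Adipoq at 0 in WT and Myh6-R404Q.

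A gene was called higher or lower in a class where the CPM of the class differed at least 1.5-fold, the interval excluded 1 and either library reached 10 CPM. As a guard against free RNA in the droplets, the class also had to hold at least 1/5 of the CPM of the gene's top class. This was asked only in the library with the higher level, for all genes alike. A pair could thus enter through the library where it was high. Cd36 in pericyte-like and macrophage-like cells passed the guard through WT and would not have passed in either mutant. The same held in Prkag2-p.R299Q for Fabp4 in macrophage-like and lymphatic endothelial-like cells and for Gpihbp1 in pericyte-like cells. It also held there for Gpam in macrophage-like, lymphatic endothelial-like and endocardial-like cells, and in Myh6-R404Q for Gpam in lymphatic endothelial-like cells. The counts of lower pairs below include all of these. Gpnmb in macrophage-like cells reached 10 CPM in the mutants only. For Myh6-R404Q against WT, 21 of 48 gene and class pairs were called, 11 higher and 10 lower, where 9.09% of all such pairs over all genes were called (5.63% higher and 3.47% lower). For Prkag2-p.R299Q against WT, 23 of 48 were called, 7 higher and 16 lower, against a background of 7.50% (4.10% higher and 3.40% lower). For Prkag2-p.R299Q against Myh6-R404Q, 11 of 43 were called, 1 higher and 10 lower, against 6.34% (2.56% higher and 3.78% lower). These comparisons share libraries, and genes of 1 class share their cells, so the pairs are not independent.

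Many of these pairs lie near the level of free RNA. As a gauge chosen after the data had been seen, UMIs per cell in T, NK and B cell-like clusters (173, 160 and 81 cells) were set beside each class. The gauge may overstate free RNA for Abca1, Fabp5 and Gpam, which lymphocytes may express. Of the called pairs, 10, 8 and 5 also had a level per cell above the lymphocytes in the library with the higher level. Free muscle RNA differed between the libraries: the lymphocytes held 4.24, 6.26 and 2.48 UMIs of Myh6 per cell. Hbb-bs, a hemoglobin of red cells, was at 0.0636, 0.237 and 0.309 UMIs per lymphocyte.

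**Figure D1:**
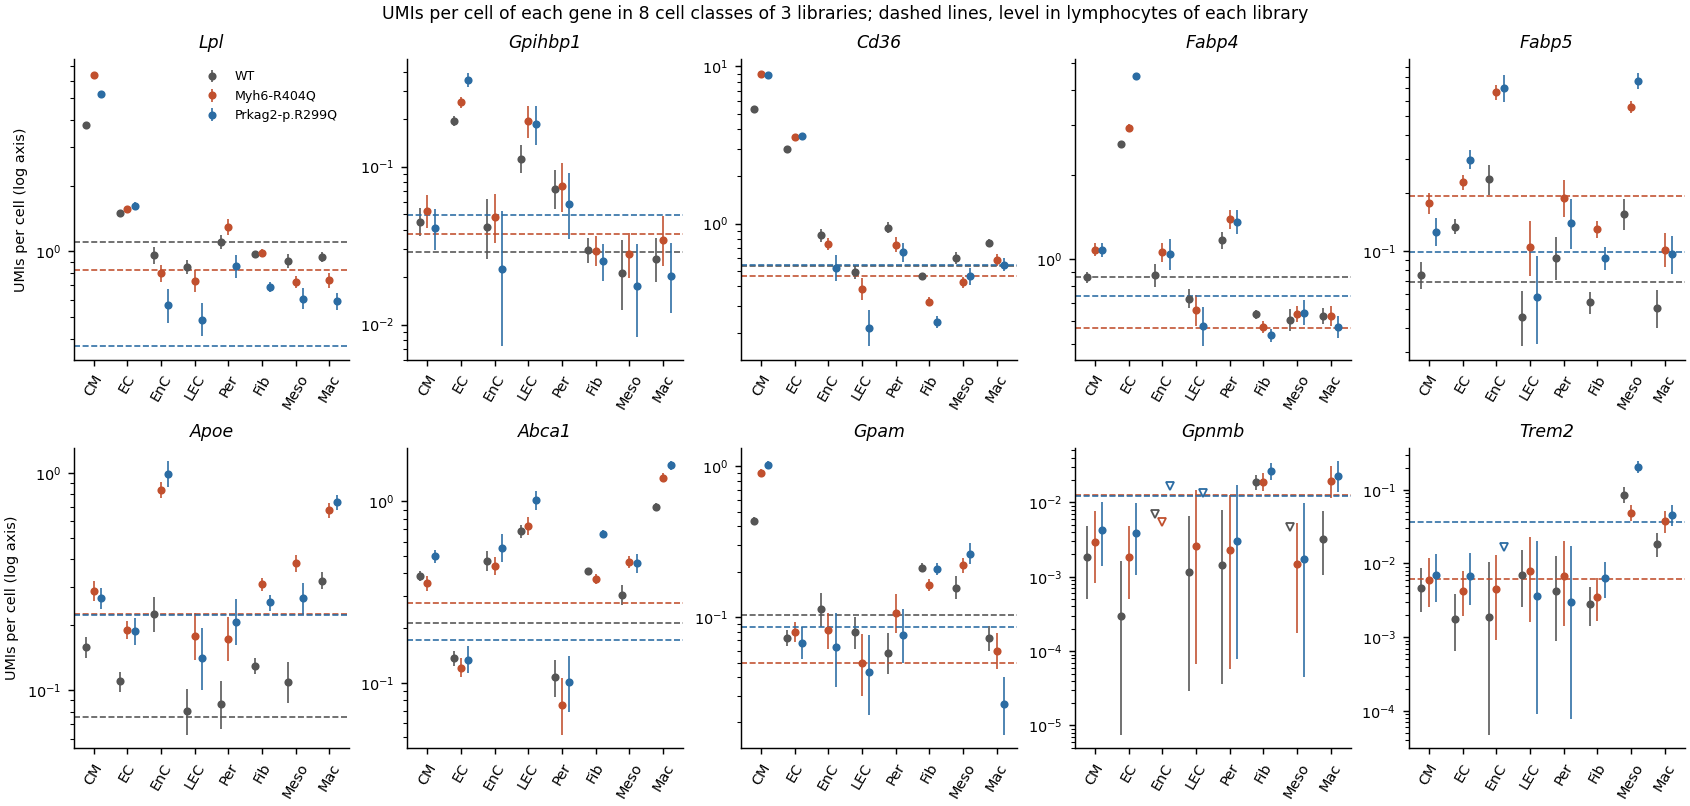
UMIs per cell (log axis) of the 10 genes in cardiomyocyte-like (CM), endothelial-like (EC), endocardial-like (EnC), lymphatic endothelial-like (LEC), pericyte-like (Per), fibroblast-like (Fib), mesothelial-like (Meso) and macrophage-like (Mac) cells of each library, with 95% Poisson intervals. Dashed lines mark the level in lymphocytes of the same library (none is drawn where it was 0), and open triangles the upper bound where no UMI was counted. Lpl lay near its dashed lines in most classes, while Trem2 in mesothelial-like cells lay above them.

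Lpl (chr8:68880491-68907448, plus strand) was highest in muscle and vessel cells, and both mutants held less of it than WT in the other 6 classes. In endothelial-like cells it stood at 1259, 1064 and 923 CPM, and in cardiomyocyte-like cells at 886 (867 to 906), 1110 (1087 to 1134) and 670 (653 to 687). The intervals of the 3 libraries in cardiomyocyte-like cells did not overlap, with Myh6-R404Q the highest and Prkag2-p.R299Q the lowest. Against WT the ratios in cardiomyocyte-like cells were 1.25 (1.22 to 1.29) and 0.756 (0.731 to 0.782), neither of which reached the size rule; the ratio of Prkag2-p.R299Q to Myh6-R404Q, 0.603 (0.584 to 0.624), did. In the other 6 classes Lpl was lower in Prkag2-p.R299Q than in WT in each case, from 0.400 (0.327 to 0.487) in endocardial-like to 0.508 (0.441 to 0.582) in pericyte-like cells. In Myh6-R404Q it was lower in 3 of the 8 classes: mesothelial-like 0.566, macrophage-like 0.631 and lymphatic endothelial-like 0.664.

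None of those 6 classes held more Lpl per cell in WT than the lymphocytes did. WT fibroblast-like cells had 0.971 UMIs per cell and WT pericyte-like cells 1.11, against 1.11 in WT lymphocytes. In Prkag2-p.R299Q the same 2 classes stood at 1.86 and 2.31 times the lymphocyte level. The lymphocytes themselves held 1.11, 0.819 and 0.370 UMIs of Lpl per cell, so their level was lower in the mutants too. In fibroblast-like cells the summed level of 9 cardiomyocyte markers was 9528, 7715 and 4985 CPM, beside 586, 483 and 262 CPM of Lpl. On the CPM scale a level that is constant per cell falls as UMIs per cell rise, and their medians were 1534, 1906 and 2527 here. Myh6 per lymphocyte, given above, was highest in Myh6-R404Q and so had another order than Lpl. The part of free muscle RNA in the lower Lpl levels was not tested. Per cell, Lpl in cardiomyocyte-like cells was 3.78, 6.40 and 5.23 UMIs, and in endothelial-like cells 1.5, 1.57 and 1.61, all above the lymphocytes of the same library. With the lymphocyte level taken off, Lpl in cardiomyocyte-like cells was at 626, 968 and 623 CPM, so that Prkag2-p.R299Q was level with WT (0.994) and Myh6-R404Q stood at 1.55. On the same scale the ratios to WT in endothelial-like cells turned from 0.845 and 0.733 to 1.55 and 2.16, and that of Prkag2-p.R299Q to Myh6-R404Q in fibroblast-like cells from 0.541 to 1.46.

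Within cardiomyocyte-like cells Lpl differed by cluster. Cluster 2 held most cells (1634, 1042 and 892) at medians of 4443, 6068 and 8080 UMIs, and cluster 11 held 497, 289 and 261 cells at medians of 910, 1099 and 1025. Lpl was at 832, 986 and 562 CPM in cluster 2 and at 1781, 3400 and 3253 CPM in cluster 11. The ratios to WT were thus 1.19 and 0.676 in cluster 2, and 1.91 (1.76 to 2.07) and 1.83 (1.68 to 1.99) in cluster 11. Prkag2-p.R299Q was below WT in the one cluster and above it in the other. Tnni3, cardiac troponin I, followed Lpl in cluster 11 at 2555, 4906 and 4582 CPM, and Myh6 stood at 15151, 34213 and 45413 CPM. Cd36 went the other way there, at 1390, 1260 and 922 CPM. The part of depth and of muscle content in the cluster difference was not tested. Over the 8 classes in 3 libraries, the gene whose log2 CPM was most like that of Lpl was Tnni3 (Pearson r = 0.959 over 24 points that share libraries and free RNA).

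Among endothelial-like cells, a cluster rich in muscle transcripts also stood apart. In the arterial-like and both capillary-like sub-clusters Lpl stood below WT in both mutants, with ratios from 0.655 to 0.719 for Myh6-R404Q and from 0.593 to 0.663 for Prkag2-p.R299Q. A small sub-cluster of 162, 135 and 79 cells, led by Ttn, Myh6 and Xirp2, held 2432, 2908 and 2276 CPM. Without it, the class ratios moved to 0.726 and 0.611, the latter past 1.5-fold.

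**Figure D2:**
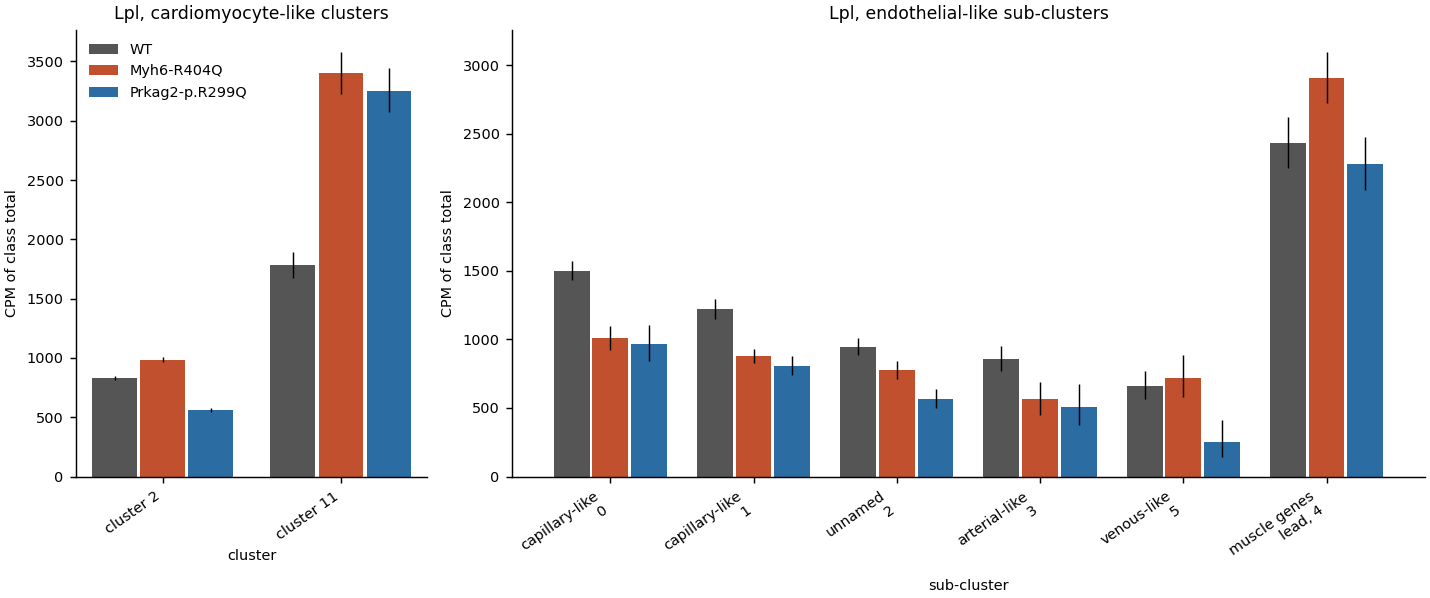
Lpl level (CPM of the cluster total, bars from 0, with 95% Poisson intervals) in the main 2 cardiomyocyte-like clusters and the 6 endothelial-like sub-clusters of each library. In cluster 11 both mutants, at 3400 and 3253 CPM, stood above WT at 1781 CPM, and among endothelial-like cells the sub-cluster led by muscle genes was the highest in each library.

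Gpihbp1 (chr15:75596628-75599481, plus strand), the partner of Lpl on capillaries, marked vessels in each library. It was at 163 (151 to 176), 174 (160 to 189) and 203 (183 to 225) CPM in endothelial-like cells and at 80.7, 108 and 96.4 CPM in lymphatic endothelial-like cells. Endothelial-like cells held 58.4%, 58.0% and 62.8% of all its UMIs. The mutants were level with WT or slightly above it in endothelial-like cells, at 1.07 (0.951 to 1.2) and 1.25 (1.09 to 1.42), with no call. The single call was a lower level in pericyte-like cells of Prkag2-p.R299Q, 25.9 against 49.4 CPM, at 0.524 (0.292 to 0.903). It rested on 19 and 51 UMIs. Dipk2b was the gene most like it (r = 0.963 over 24 points).

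Cd36 (chr5:17781690-17888801, minus strand), the fatty acid transporter, was high in both vessel and muscle cells. Endothelial-like cells held 2502, 2419 and 2056 CPM and cardiomyocyte-like cells 1251, 1552 and 1120 CPM. Endothelial-like cells led in each library, and the ratios to WT in these 2 classes lay between 0.822 and 1.24, with no call. Per cell the mutants were higher in cardiomyocyte-like cells, at 5.34, 8.94 and 8.75 UMIs, where the mutants also had more UMIs per cell. Cd36 was called lower in pericyte-like cells (642, 381 and 293 CPM) at 0.594 (0.519 to 0.680) and 0.456 (0.389 to 0.533). These cells held 275, 141 and 50.1 CPM with the lymphocyte level taken off, ratios of 0.512 and 0.182. In macrophage-like cells it was at 532, 338 and 250 CPM, with ratios of 0.635 (0.572 to 0.703) and 0.471 (0.421 to 0.525). Its lymphocyte level was 0.538, 0.463 and 0.543 UMIs per cell, a scale that does not allow for the higher UMIs per cell in the mutants. As CPM, with the cell that held the most left out, lymphocytes were lower in the mutants. T and NK cell-like cells stood at 438, 180 and 194 CPM and B cell-like cells at 396, 298 and 233 CPM. These rest on few UMIs: B cell-like cells held 25, 42 and 24, of which the cell left out held 2, 9 and 11. The part of free RNA in the lower Cd36 levels was not tested. Macrophage-like cells held 1.39, 1.27 and 1.01 times the lymphocyte level, so the level in Prkag2-p.R299Q could not be told from that of free RNA. They were at 150, 72.3 and 1.68 CPM with the lymphocyte level taken off.

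Fabp4 (chr3:10204088-10208576, minus strand), a fatty acid binding protein of capillary endothelium and fat cells, was highest in endothelial-like cells, at 2164 (2118 to 2210), 1999 (1950 to 2049) and 2565 (2491 to 2639) CPM. Pericyte-like cells came next at 798, 721 and 606 CPM. The class ratios of 0.924 and 1.19 did not reach the size rule. Arterial-like cells differed more: 1575, 1429 and 2894 CPM, so that Prkag2-p.R299Q stood 1.84-fold (1.59 to 2.12) above WT there while Myh6-R404Q stood at 0.907. These were 275, 103 and 54 cells. Venous-like cells were at 1244, 1516 and 1744 CPM. Cd36 showed the same order in arterial-like cells, at 1413, 1392 and 1929 CPM, with a ratio of 1.37 (1.15 to 1.62) in Prkag2-p.R299Q. The calls for Fabp4 were a lower level in lymphatic endothelial-like cells (0.575) and macrophage-like cells (0.590) of Prkag2-p.R299Q, both at or below the lymphocyte level per cell. Tcim (r = 0.976) and Rgcc (r = 0.956) were most like it over 24 points.

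Fabp5 (chr3:10012548-10016607, plus strand), a relative of Fabp4 found in epithelial and endothelial cells, was higher in both mutants in mesothelial-like and endocardial-like cells. Mesothelial-like cells, the outer lining of the heart, held 77.5 (64.4 to 92.4), 195 (181 to 209) and 235 (213 to 258) CPM, which is 2.52-fold (2.08 to 3.07) and 3.03-fold (2.48 to 3.73) the WT level. Endocardial-like cells, the inner lining, held 138, 320 and 278 CPM, at 2.31-fold (1.89 to 2.84) and 2.01-fold (1.58 to 2.56). The intervals of WT did not overlap those of either mutant in either lining. In endothelial-like cells the levels were 112, 155 and 170 CPM, and only Prkag2-p.R299Q was called, at 1.51 (1.30 to 1.75). The levels per cell in both linings were above those of lymphocytes (0.0694, 0.194 and 0.0988 UMIs) in each mutant: 0.555 and 0.762 UMIs in mesothelial-like cells, which is 2.86 and 7.72 times the lymphocyte level, and 3.42 and 7.07 times in endocardial-like cells. With the lymphocyte level taken off, mesothelial-like cells held 42.9, 127 and 204 CPM of Fabp5, endocardial-like cells 97.6, 226 and 239, and endothelial-like cells 54.1, 23.1 and 113, where Myh6-R404Q turned from above WT to below it. Pericyte-like cells were also called higher for Myh6-R404Q, at 98.3 against 62.9 CPM, but their level per cell was not above the lymphocytes. Macrophage-like cells were low, at 36.1, 58.4 and 44.0 CPM, and below the lymphocytes per cell. The share of all Fabp5 UMIs that lay in mesothelial-like cells was 9.40%, 29.2% and 30.9%, a share that also moves with the number of these cells (797, 1365 and 572).

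Apoe (chr7:19696109-19699188, minus strand), the apolipoprotein that macrophages and other cells secrete, was called higher in 6 of 7 classes tested for Myh6-R404Q, and for Prkag2-p.R299Q in 3 of 6. The largest ratio was in endocardial-like cells, at 132 (109 to 158), 403 (370 to 438) and 395 (344 to 451) CPM, or 3.06-fold (2.50 to 3.76) and 3.00-fold (2.39 to 3.78). Endocardial-like cells thus passed macrophage-like cells (227, 387 and 335 CPM) as the highest class in both mutants, with overlapping intervals, whereas in WT macrophage-like cells led. The summed CPM of 8 macrophage markers in endocardial-like cells was 88.6, 47.6 and 64.6, highest in WT. In macrophage-like cells the 3 largest sub-clusters each stood above WT, with ratios between 1.36 and 2.16 for Myh6-R404Q and from 1.74 to 1.81 for Prkag2-p.R299Q. The whole class gave 1.70 (1.51 to 1.92), which was called, and 1.47 (1.30 to 1.66), which was not. The sub-cluster highest in Apoe in WT held 897 of 1538 macrophage-like cells there and 111 of 832 in Prkag2-p.R299Q. The resident-like sub-cluster was at 181, 390 and 326 CPM and the sub-cluster rich in MHC class II genes at 178, 367 and 319 CPM. Mesothelial-like cells held 54.3, 135 and 81.9 CPM, ratios of 2.49 (1.98 to 3.16) and 1.51 (1.15 to 1.98). Dendritic-like cells, too few for a call, held 81.2, 677 and 243 CPM in 102, 115 and 58 cells, and 72 of the 155 UMIs in Myh6-R404Q came from 1 cell.

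Free Apoe RNA was also higher in the mutants. Lymphocytes held 0.0751, 0.225 and 0.222 UMIs of Apoe per cell. Endocardial-like cells were 3.71 and 4.46 times above this level in Myh6-R404Q and Prkag2-p.R299Q, and macrophage-like cells of Myh6-R404Q 3.00 times. With the lymphocyte level taken off, the endocardial ratios stayed at 3.36 and 3.5, the macrophage ratio in Myh6-R404Q went from 1.70 to 1.48, and the fibroblast ratio from 1.92 to 1.22. The mesothelial ratio in Prkag2-p.R299Q turned from 1.51 to 0.792. Calls in lymphatic endothelial-like and pericyte-like cells were at or below the lymphocyte level per cell.

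**Figure D3:**
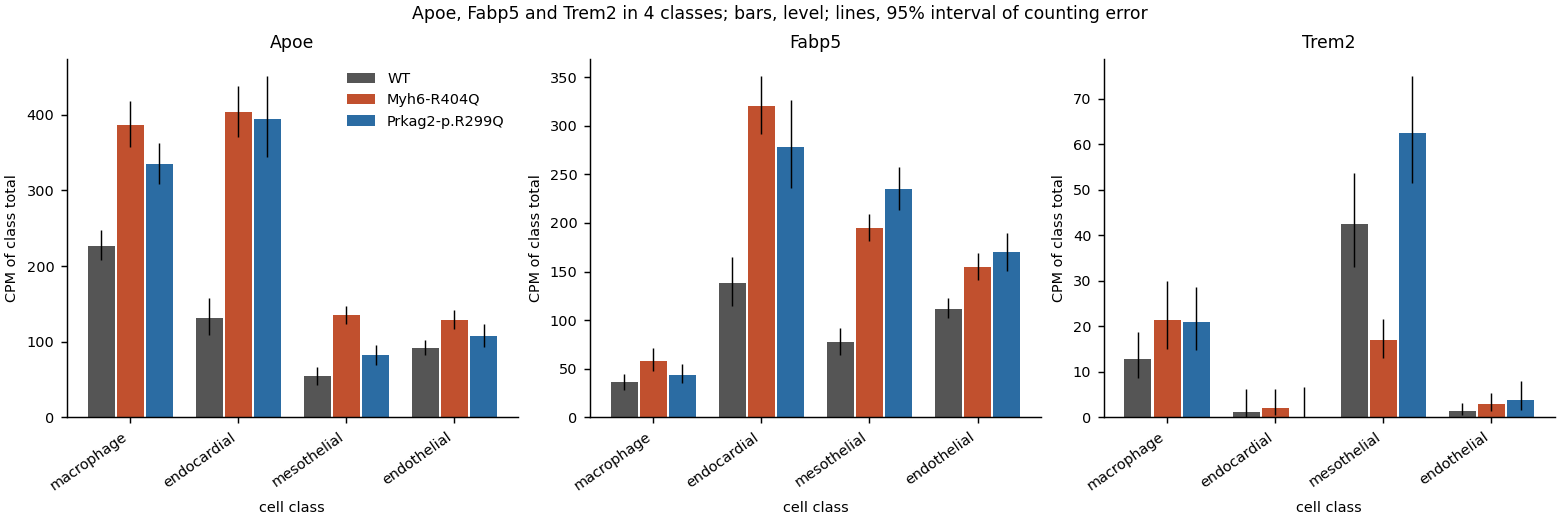
Levels of Apoe, Fabp5 and Trem2 (CPM of the class total, bars from 0, with 95% Poisson intervals) in macrophage-like, endocardial-like, mesothelial-like and endothelial-like cells of each library. Apoe and Fabp5 stood above WT in endocardial-like cells of both mutants, and Trem2 in mesothelial-like cells was lowest in Myh6-R404Q, at 42.5, 17.0 and 62.5 CPM.

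Abca1 (chr4:53030787-53159895, minus strand), the cholesterol exporter whose upstream stretch is printed above, differed more between classes than between libraries. It was highest in macrophage-like cells, at 661 (627 to 696), 776 (734 to 820) and 722 (683 to 762) CPM, and next in lymphatic endothelial-like cells, at 492, 407 and 529 CPM. No pair was called in the 3 comparisons, each over 5 classes. The ratios to WT in macrophage-like cells were 1.17 (1.09 to 1.27) and 1.09 (1.01 to 1.18), and in fibroblast-like cells 0.737 (0.683 to 0.795) and 1.01 (0.944 to 1.09). Resident-like macrophages held 884, 947 and 801 CPM and those rich in MHC class II genes 435, 628 and 511 CPM, the latter with a ratio of 1.44 (1.19 to 1.76) in Myh6-R404Q. Pericyte-like cells were at 72.6, 39.1 and 44.9 CPM, a ratio of 0.538 (0.346 to 0.821) in Myh6-R404Q that fell to the guard against free RNA.

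Gpam (chr19:55067268-55127238, minus strand), the mitochondrial enzyme of the first step of triglyceride synthesis, was called higher in muscle for Myh6-R404Q and lower in fibroblast-like cells of both mutants. In cardiomyocyte-like cells it stood at 102 (95.1 to 108), 156 (148 to 166) and 131 (124 to 139) CPM, a ratio of 1.54 (1.41 to 1.68) for Myh6-R404Q, which was called, and of 1.29 (1.18 to 1.41) for Prkag2-p.R299Q, which was not. Cluster 2 alone gave 1.55 and 1.30. In fibroblast-like cells it was at 129 (120 to 137), 79.9 (72.8 to 87.4) and 79.4 (72.4 to 87.0) CPM, or 0.622 (0.555 to 0.695) and 0.618 (0.552 to 0.692) of WT. Each of the 3 fibroblast-like clusters stood below WT in both mutants, with ratios between 0.559 and 0.637 for Myh6-R404Q and from 0.512 to 0.687 for Prkag2-p.R299Q. Cluster 4, whose leading genes include Fbn2 and Fgf10, held the most in WT and stood at 215, 120 and 110 CPM. These fibroblast levels were above the lymphocytes per cell in each library. They were 65.7, 55.5 and 46.7 CPM with the lymphocyte level taken off, so that neither mutant was as much as 1.5-fold below WT, and with its upper bound taken off 29.3, 31.7 and 11.9 CPM. Cardiomyocyte-like cells were then at 77.2, 148 and 120 CPM.

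Mesothelial-like cells, at 78.1, 77.5 and 81.4 CPM of Gpam, did not differ beyond counting error, with ratios of 0.992 (0.803 to 1.23) and 1.04 (0.817 to 1.33). In macrophage-like cells Gpam was at 51.8, 34.4 and 12.1 CPM (112, 56 and 22 UMIs) and was called lower at 0.665 (0.474 to 0.925) and 0.234 (0.141 to 0.372), but in WT their level per cell was 0.700 times that of the lymphocytes. Endocardial-like cells (0.597 and 0.378) and lymphatic endothelial-like cells (0.483 and 0.397) were also called lower, as were endothelial-like cells of Prkag2-p.R299Q (0.635, 0.480 to 0.831), again not above the lymphocytes. An antisense gene, AC110206.1, overlaps Gpam on the other strand, at chr19:55099502-55117815, and is counted on its own.

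**Figure D4:**
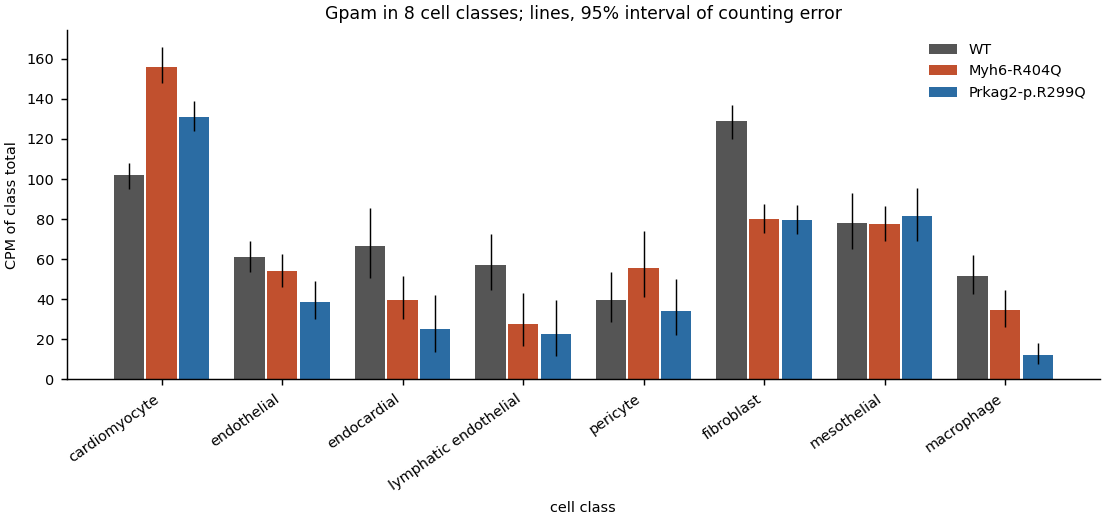
Gpam level (CPM of the class total, bars from 0, with 95% Poisson intervals) in 8 cell classes of each library. Both mutants stood above WT in cardiomyocyte-like cells (102, 156 and 131 CPM) and below it in fibroblast-like cells (129, 79.9 and 79.4 CPM).

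Trem2 (chr17:48346401-48354147, plus strand), the lipid-sensing receptor of macrophages, was more abundant in mesothelial-like than in macrophage-like cells in WT and Prkag2-p.R299Q. Mesothelial-like cells held 42.5 (33.0 to 53.8), 17.0 (13.1 to 21.6) and 62.5 (51.6 to 75.0) CPM, from 68, 66 and 116 UMIs in 57, 61 and 81 cells. The interval of Myh6-R404Q lay below both others, while those of WT and Prkag2-p.R299Q overlapped slightly. The ratio to WT was 0.400 (0.281 to 0.570) for Myh6-R404Q and 1.47 (1.08 to 2.02) for Prkag2-p.R299Q, the latter under the size rule. Prkag2-p.R299Q stood 3.68-fold (2.70 to 5.06) above Myh6-R404Q. The main mesothelial-like cluster alone gave 42.7, 16.6 and 59.1 CPM. No cell held more than 6 of the UMIs, and without the cell with the most in each library the ratio to WT was 0.405 in Myh6-R404Q and that of Prkag2-p.R299Q to Myh6-R404Q was 3.60.

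Macrophage markers were also counted in these cells. Tyrobp, the adaptor through which Trem2 signals in macrophages, was at 0.00125, 0.00659 and 0.00874 UMIs per mesothelial-like cell, against 0.0853, 0.0484 and 0.203 of Trem2. C1qa, a complement gene of macrophages, was at 0.0276, 0.0227 and 0.0157 UMIs per cell. Csf1r was higher in the mutants, at 0.0552, 0.119 and 0.161. The summed level of 8 macrophage markers was 96.8, 86.0 and 117 CPM, of which 7, 7 and 8 had a UMI and Fcgr1 was at 0 in WT and Myh6-R404Q. This sum had the same order of libraries as Trem2, with a smaller range, and its part in the Trem2 levels was not tested. In macrophage-like cells Trem2 was at 12.9 (8.60 to 18.7), 21.5 (15.0 to 29.9) and 20.9 (14.8 to 28.7) CPM. The ratios of 1.66 (0.983 to 2.84) and 1.62 (0.966 to 2.73) were not distinguishable from 1 at this depth. Il18 was the gene most like Trem2 (r = 0.916 over 24 points).

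Gpnmb (chr6:49036546-49070929, plus strand) was rare, and fibroblast-like cells held most of it: 81 of 102, 55 of 89 and 59 of 91 UMIs, or 11.3, 9.31 and 10.0 CPM. Per cell this was 0.0188, 0.0191 and 0.0264 UMIs against 0, 0.0125 and 0.0123 in lymphocytes, a difference that could not be told from counting error with 0 to 2 lymphocyte UMIs per library. In macrophage-like cells it was called higher in both mutants, at 2.31 (0.750 to 5.39), 11.1 (6.56 to 17.5) and 10.5 (6.29 to 16.3) CPM. Per cell the mutants stood at 1.54 (0.370 to 13.7) and 1.85 (0.294 to 76.9) times the lymphocytes, which was not distinguishable at this depth. The counts behind this were 5, 18 and 19 UMIs in 5, 6 and 4 cells. A single cell held 10 of the 18 UMIs of Myh6-R404Q and another held 13 of the 19 of Prkag2-p.R299Q. Without the cell with the most UMIs in each library, 4, 8 and 6 UMIs were left and the ratios went from 4.79 (1.71 to 16.5) to 2.67 and from 4.52 (1.63 to 15.5) to 1.79. Of these UMIs, 2, 16 and 17 were in the sub-cluster rich in MHC class II genes. Trem2 was found in 0, 1 and 0 of the cells with Gpnmb. Schwann-like cells of WT held 8 UMIs in 6 of 88 cells.

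**Figure D5:**
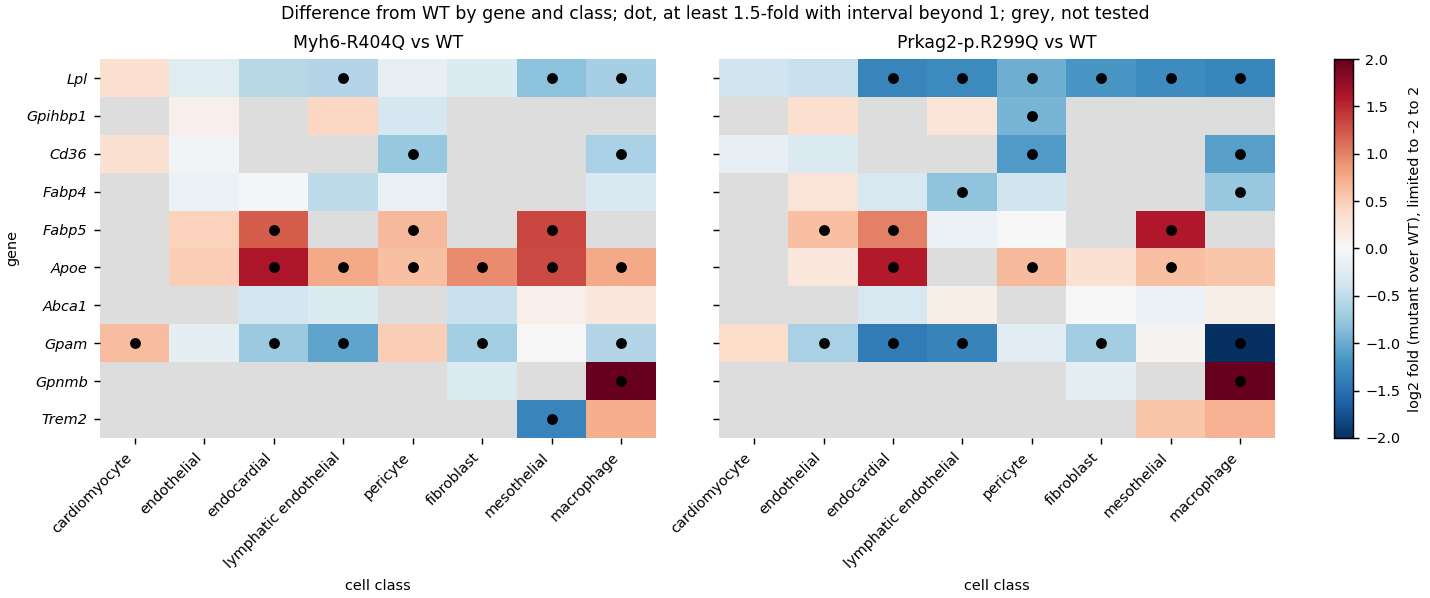
Log2 ratio to WT of the 10 genes in 8 cell classes, for Myh6-R404Q (left) and Prkag2-p.R299Q (right), on a colour scale limited to -2 and 2; dots mark called pairs and grey marks pairs under the level rule or the guard. Apoe and Fabp5 were called only higher and Lpl only lower against WT, while Gpam had calls in both directions in Myh6-R404Q.

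The wider lipid genes, 80 in 7 lists written with earlier results of these data known, were not called in the same direction in all classes. In pericyte-like cells of Myh6-R404Q, 9 of 57 tested were higher and 0 lower (4.28% and 2.65% over all genes). In those of Prkag2-p.R299Q, 0 of 55 were higher and 6 lower (4.05% and 3.16%). Endocardial-like cells of Prkag2-p.R299Q had 1 of 45 higher and 8 lower (4.03% and 3.73%). For Myh6-R404Q these were 4 and 5 of 45 (5.19% and 3.61%). Macrophage-like cells of Prkag2-p.R299Q had 1 of 54 higher and 8 lower (4.28% and 4.85%). For Myh6-R404Q these were 3 and 4 of 54 (7.27% and 5.06%). Lymphatic endothelial-like cells of Myh6-R404Q had 5 of 50 higher and 9 lower (4.83% and 3.32%). For Prkag2-p.R299Q these were 3 and 8 of 52 (3.62% and 4.09%). Fibroblast-like cells of Prkag2-p.R299Q had 1 of 47 higher and 8 lower (3.36% and 3.65%), and those of Myh6-R404Q 4 of 48 higher and 2 lower (4.25% and 3.68%). In cardiomyocyte-like cells of Myh6-R404Q, 9 of 42 tested were higher and 1 lower, with a median log2 ratio of 0.21 beside 0.10 over all 8070 genes tested, of which 9.53% were called higher and 2.74% lower. Fabp3, the fatty acid binding protein of muscle, was at 675 against 414 CPM (1.63, 1.57 to 1.70), and Dgat2, which completes triglyceride synthesis, at 109 against 65.6 (1.67, 1.5 to 1.86). Lpin1, a phosphatidate phosphatase of the same pathway, was the 1 lower gene, at 199 against 327 CPM (0.607, 0.571 to 0.646). In Prkag2-p.R299Q, 0 of 40 were called in either direction in these cells, with Fabp3 at 468 and Dgat2 at 96.4 CPM, where 5.33% of all genes tested were called.

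In endothelial-like cells the same lists gave calls at about the share over all genes. Of 51 genes tested there, 0 were higher and 4 lower in Myh6-R404Q, and 2 higher and 2 lower in Prkag2-p.R299Q, where 6.98% and 6.69% of all genes were called. Vldlr, a receptor for triglyceride-rich lipoproteins, was lower in Prkag2-p.R299Q, at 39.8 against 85.7 CPM (0.465, 0.356 to 0.601). Plin5, a coat protein of lipid droplets in muscle, and Fitm2, a protein of droplet formation, were lower in macrophage-like cells of both mutants. Plin5 was at 25, 9.23 and 8.80 CPM and Fitm2 at 34.2, 13.5 and 12.1 CPM there. The summed CPM of the 9 cardiomyocyte markers in macrophage-like cells was 12295, 10196 and 8029; its part in these values was not tested.

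Genes known from lipid-laden macrophages, a list without Trem2, Gpnmb and the rest of the 10 genes, were called higher in mesothelial-like cells, where 3 of 6 tested were higher for Myh6-R404Q and 4 of 6 for Prkag2-p.R299Q. None of the list was lower there, while Trem2 itself was lower for Myh6-R404Q (0.400), and the median log2 ratios were 0.71 and 0.85 beside 0.06 and 0.03 over all genes tested, of which 6.43% and 6.27% were called higher. Ctsl, a lysosomal protease, was at 130 and 157 CPM in the mutants, 2.61-fold (2.06 to 3.35) and 3.14-fold (2.44 to 4.07) the WT level, and Lgals3, galectin-3, at 26.4 against 7.50 CPM in Prkag2-p.R299Q (3.52, 1.85 to 7.28). Other lists moved in mesothelial-like cells too. Of the list of cholesterol efflux and storage, 3 of 7 tested were higher and 0 lower in each mutant. Over the wider lipid genes, 8 of 46 were higher and 3 lower in Myh6-R404Q, and 10 of 47 higher and 5 lower in Prkag2-p.R299Q. Of all genes tested, 3.42% and 2.46% were called lower. Clu, a secreted apolipoprotein, was at 52.5, 114 and 114 CPM, while the other apolipoprotein tested from its list was called lower in both mutants. Of the list of lipid-laden macrophages, 2 of 10 were higher and 0 lower in macrophage-like cells of Myh6-R404Q. In those of Prkag2-p.R299Q 1 was higher and 1 lower, where 12.3% and 9.12% of all genes tested were called. The difference between the classes was not tested. Mesothelial-like cells pool a main cluster of 783, 1309 and 535 cells with a shallow one of 14, 56 and 37. The lists were not split by cluster, and Ctsl, Lgals3 and Clu were not set beside the lymphocytes.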

How the data were processed

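The authors deposited raw UMI counts for each gene in each barcode. Per the submitters' processing notes, Cell Ranger 7.0.1 and mm10 were used; whether intronic reads were counted is not given in the sources used here. A kit of version 3 that reads 3-prime ends was used, per the labels' protocols. Replicates were not pooled, since each genotype has 1 library, so intervals describe counting error within these libraries.

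Barcodes under 500 UMIs, under 300 genes or over 20% mitochondrial UMIs were dropped, and doublets were removed with Scrublet in scanpy 1.11.5 (17.76%, 16.63% and 13.97% of barcodes, where 14.4%, 10.1% and 6.36% were expected). From 2000 variable genes without the 10 lipid genes, 30 principal components and 20 neighbours were taken and clustered with leidenalg 0.10.2 at resolution 0.8. Clusters were named from marker lists. Many clusters had no listed marker among their 10 leading genes, and names stay "-like". They include every fibroblast-like, endothelial-like, cardiomyocyte-like and pericyte-like cluster and the main mesothelial-like cluster. UMIs were summed per class and library and scaled to CPM; exact Poisson, binomial and conditional binomial intervals were used. The calling rule without the guard was run on counts simulated with counting error alone. That run says nothing about free RNA, the guard or differences between replicates. Coordinates come from a GENCODE annotation of mm10. With BLAST 2.17.0, 0 other genes had a transcript at least 90% identical over 100 bases of the last 500 bases of a lipid gene. Each lipid gene is named, and of the other lists the 4 highest genes and those past 2-fold could be named. The genes, lists and rules were chosen with earlier results of these data known. Alternatives changed filters, doublets, resolution, thinning to 1000 UMIs, scaling and thresholds.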

Additional observations from a re-analysis of the deposited data

Results flagged for a closer look

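Gpam was called in opposite directions in different classes of Myh6-R404Q. Its ratio to WT was 1.54 in cardiomyocyte-like cells, and 0.597 in endocardial-like, 0.622 in fibroblast-like, 0.483 in lymphatic endothelial-like and 0.665 in macrophage-like cells. With 1 library per genotype the difference between classes was not tested. Of the 4 classes with lower Gpam, fibroblast-like cells alone stood above the lymphocytes per cell in WT. With the lymphocyte level taken off, their levels were 65.7 CPM in WT and 55.5 CPM in Myh6-R404Q, which no longer reached 1.5-fold. On the same scale endocardial-like cells turned from below WT to above it, at 5.15 CPM in WT and 15.5 CPM in Myh6-R404Q.

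Lpl in Prkag2-p.R299Q was above WT in cardiomyocyte-like cluster 11, at a ratio of 1.83, and below it in cluster 2, at 0.676. This difference was not tested either.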

How the results depend on the processing

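Called pairs numbered 21 for Myh6-R404Q against WT, 23 for Prkag2-p.R299Q against WT and 11 for Prkag2-p.R299Q against Myh6-R404Q, and stayed within 1.5 times of this when filters, doublets, resolution, thinning or scaling were changed. At a needed fold of 2 they were 7, 14 and 2. With a level above lymphocytes per cell also required, a rule added after the data had been seen, they were 10, 8 and 5. Over all genes, 6802, 5542 and 4719 pairs were called, and 2550, 2216 and 1823 at a minimum of 50 CPM. Of 55 called ratios, 45 held with no doublets removed, 46 with doublets removed at a fixed rate, 47 after thinning to 1000 UMIs and 50 to 55 under the other planned settings, with 0 reversed. In a further tally the lymphocyte level was taken off for Lpl, Cd36, Fabp4, Gpihbp1, Apoe, Trem2 and Gpnmb. Fabp5, Abca1 and Gpam were outside this tally. A ratio could be formed for 20 called pairs, of which 15 held and 2 reversed. Apoe in mesothelial-like cells of Prkag2-p.R299Q against WT became 0.792. Lpl in fibroblast-like cells of Prkag2-p.R299Q against Myh6-R404Q became 1.46. Called pairs in which a level fell to 0 or below had no ratio and are not among the 20. They include all 6 calls of lower Lpl in Prkag2-p.R299Q against WT, so the 15 covers only pairs left above free RNA. Outside the tally, the calls of lower Gpam in fibroblast-like cells did not hold, and that in endocardial-like cells of Myh6-R404Q reversed. The call of higher Gpam in cardiomyocyte-like cells and those of higher Fabp5 in both linings held. The cause was not tested. No paired analysis was possible because each genotype has 1 library. Few UMIs limit Trem2 and Gpnmb in macrophage-like cells, and for Gpnmb single cells held 10 of 18 and 13 of 19 UMIs.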
